A study of Mus musculus with 6 samples.

Results

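The mRNA levels of 9 genes of the interleukin 1 (IL-1) system and the inflammasome were followed in mouse brain. They were taken by name from the 770 genes of a NanoString panel, on which all 9 were present: the ligand genes Il1a and Il1b, the antagonist gene Il1rn, the receptor genes Il1r1, Il1rap, Il1r2 and Il1rl2, and the inflammasome genes Nlrp3 and Casp1. The samples were total RNA of whole brain homogenates, labelled day 10 with no starting point given, from C57BL/6 mice. There were 3 wild-type (WT) samples and 3 SOD1-G85R transgenic samples, which carry a form of superoxide dismutase 1 found in familial amyotrophic lateral sclerosis. No treatment was applied. The labels name neither the promoter nor the line of the transgene, and its expression was not analysed here. Whether each replicate was a separate animal is not stated, so that p-values measure the spread between these samples only.

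IL-1α and IL-1β are alarm cytokines that start inflammation through 1 shared signalling receptor. IL-1β is made as an inactive precursor. In cells that sense damage or microbes, NLRP3 and related sensors assemble an inflammasome that activates caspase-1, which cleaves the precursor into the active cytokine. In the brain, microglia and infiltrating myeloid cells are the usual sources of IL-1, while endothelial cells and some neurons carry its receptor, and 2 natural brakes exist: a receptor antagonist that occupies the receptor without signalling and a decoy receptor that binds IL-1 without signalling.

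Values are given as normalized counts, the deposited signal per gene and sample after the authors' scaling. In each sample the lowest value was shared by 10 to 59 genes and was read as a floor, so that a value at the floor is only an upper limit. In the order of the replicates, floors were 8.87, 13.4 and 8.05 for WT, against 7.85, 11.4 and 10.2 for SOD1-G85R. All lists of values below follow that order. Implied totals ran from 468718 to 1022668 counts a sample. SOD1-G85R replicate 2 stood apart, with log2 correlations across genes of 0.828 to 0.841 with the other samples, against 0.961 to 0.986 among those. The low end of the panel also differed between the genotypes: the 10th percentile of all 770 values was 11.8, 16.1 and 13.6 in WT against 22.4, 39.7 and 32.7 in the transgenic samples. Uty and Kdm5d, both Y-linked, summed to 1076 and 819 in WT replicates 1 and 2 and to 708 in SOD1-G85R replicate 2, against 15.7 to 20.5 in the other samples. Without SOD1-G85R replicate 2 the transgenic samples left lack this Y-linked signal, while WT replicates 1 and 2 hold it. In every fit without that replicate, sex and genotype cannot be fully told apart. Neuronal markers were present in every sample, with sums of 32364 to 44179 over 11 genes.

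Il1b, Nlrp3, Casp1 and Il1r2 were higher in every SOD1-G85R sample than in any WT sample, and Il1rap was lower in every one. Groups that do not overlap in the higher direction were found for 17.4% of all 770 genes, and in the lower direction for 9.22%. Il1a, Il1rn, Il1r1 and Il1rl2 overlapped between the genotypes. None of the 7 members that could be tested passed limma's threshold of 0.05 on the p adjusted over the 712 genes above 20 in at least 3 samples. That test called 0 genes, or 0%, over the whole panel, with a smallest adjusted p of 0.0810. At an unadjusted p of 0.05 limma counted 116 genes, or 16.3% of those tested, with 2 of the 7 members, Il1b and Nlrp3, among them. Both were higher in SOD1-G85R, as were 11.7% of the genes tested at that p, while 4.63% were lower. Without SOD1-G85R replicate 2 limma again counted these 2 members at the unadjusted p, where 18.4% of the genes passed. After quantile normalization 1 member passed it, Il1rl2 in the lower direction, against 8.15% of the genes. With no filter on low values 3 of the 9 members passed it, Il1b, Nlrp3 and Il1r2, against 15.6% of the genes. With sample weights limma called 2 members at the adjusted threshold, Il1b (adjusted p of 0.0186) and Nlrp3 (adjusted p of 0.0442), against 7.30% of the genes. Il1r2 and Il1rn were left out by the filter on low values. Il1b passed it only because all 3 SOD1-G85R samples exceeded 20, since no WT sample did, so its direction was fixed by the filter in every fit that used it, and its counts among the members passing, with sample weights too, are no support for a difference.

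**Figure D1:**
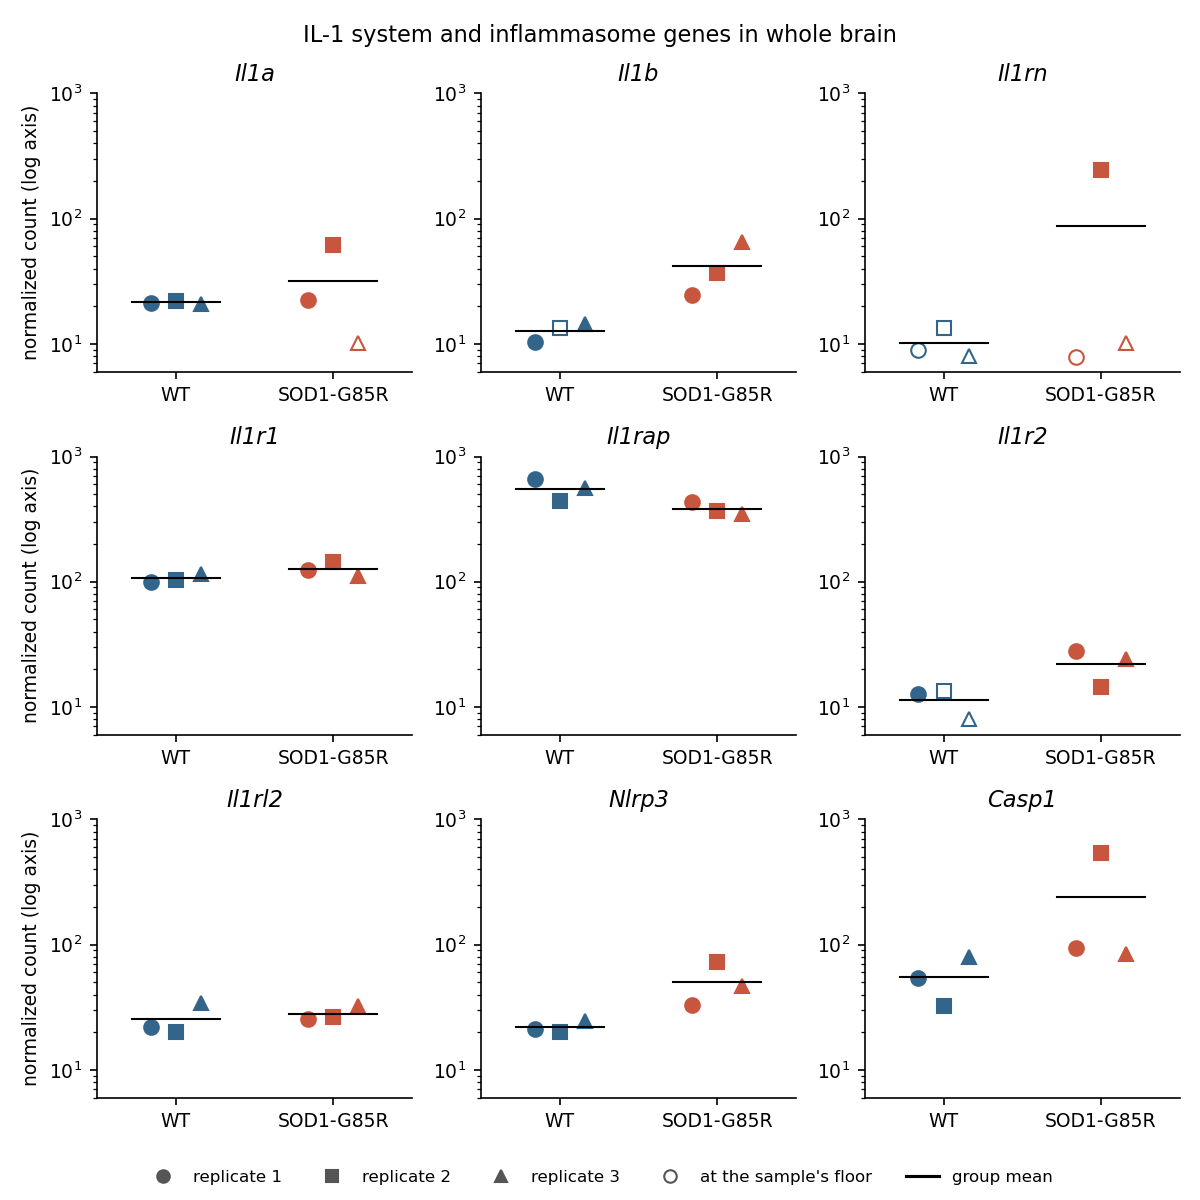
Normalized counts (log axis) of the 9 genes in the 3 WT and 3 SOD1-G85R samples, 1 panel a gene, with the marker shape giving the replicate, open markers values at the floor of their sample and black lines the group means. Il1rn was above its floor in SOD1-G85R replicate 2 alone, at 245, and Casp1 was highest there, at 541.

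Il1b, the gene of the secreted cytokine that needs caspase-1 to mature, was close to the floor in WT brain. It was at 10.3 in WT replicate 1, at the floor of 13.4 in replicate 2 and at 14.4 in replicate 3. The transgenic samples were at 24.5, 36.6 and 65.3. The highest value was thus in replicate 3, not in the replicate that stood apart on the panel. The WT mean was 12.7 ± 2.14 and the SOD1-G85R mean 42.2 ± 21.0 (SD, n = 3 per group), for a log2 fold change of 1.56 (SE 0.38) with an adjusted p of 0.190 by limma. These values rest on few molecules: 13 and 18 implied counts in the WT samples above the floor and 23, 46 and 46 in SOD1-G85R. The 95% Poisson interval, which covers counting error only, was 8.52 to 22.7 for WT replicate 3 and 15.5 to 36.8 for SOD1-G85R replicate 1, so these neighbours could not be separated by counting alone. In SOD1-G85R replicate 3 the interval was 47.8 to 87.2, above that of every WT sample over its floor. It overlapped that of SOD1-G85R replicate 2, at 26.8 to 48.9, which had the same 46 implied counts. The values of these replicates differ through the scaling step, of 1.42 in replicate 3 against 0.796 normalized counts per implied count in replicate 2. Without SOD1-G85R replicate 2 the log2 fold change was 1.60 (limma, adjusted p of 0.0783), and after quantile normalization it was 0.79 (limma, adjusted p of 0.671).

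Il1a, the gene of the cell-associated alarmin form, showed no common shift. It was at 21.4, 22.1 and 20.8 in WT, and at 22.4 in SOD1-G85R replicate 1, 62.1 in replicate 2 and at the floor of 10.2 in replicate 3. Its SOD1-G85R samples thus lay on both sides of a narrow WT range, with the highest and the lowest value of all 6 samples among them. The log2 fold change was 0.19 (SE 0.60; limma, adjusted p of 0.882) and turned to -0.47 without SOD1-G85R replicate 2 (limma, adjusted p of 0.526). It was -0.67 after quantile normalization and -0.02 with the sample medians set equal, and it was 0.78 without SOD1-G85R replicate 3. The ligand genes differed in where they were highest: Il1a in SOD1-G85R replicate 2 and Il1b in replicate 3, where Il1a was at the floor. For Il1b the order of these replicates rests on the scaling step, as given above.

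Il1rn, which encodes the receptor antagonist, was above the floor in 1 sample. It was at the floor in all 3 WT samples (8.87, 13.4 and 8.05), and likewise in the transgenic replicates 1 and 3 (7.85 and 10.2). In SOD1-G85R replicate 2 it reached 245, from 308 implied counts, with a Poisson interval of 219 to 274. That was at least 18.3-fold higher than in any other sample, since floors are upper limits. Values over 4 times the highest other sample in that replicate were found for 10.5% of the 770 genes and for 2 of the 9 members, Il1rn and Casp1. In the fit without a filter the log2 fold change was 1.42 (SE 1.27; limma, adjusted p of 0.603), a value that depends on the floors.

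The sequences before a start of the 5 members that were highest in SOD1-G85R replicate 2 (Il1a, Il1rn, Il1r1, Nlrp3 and Casp1) are shown beside that of Il1b, which was highest in replicate 3. Each line holds the 250 bases before an annotated start, 5′ to 3′ in the direction of transcription, from RefSeq with build GRCm38.p6. All 9 members were matched by symbol. Where the table holds several starts, for Il1rn, Il1r1 and Nlrp3, the first along the plus strand was taken. Such a start need not be the edge of the gene. The annotated span of Il1a ends at 129310186 and that of Il1r1 begins at 40222480. Most of the Il1a window and all of the Il1r1 window thus lie inside the gene, as do the last bases of the Il1b window. Capitals mark matches on either strand to any of 5 motifs.
Il1a, chr2:129309973-129310222, minus strand: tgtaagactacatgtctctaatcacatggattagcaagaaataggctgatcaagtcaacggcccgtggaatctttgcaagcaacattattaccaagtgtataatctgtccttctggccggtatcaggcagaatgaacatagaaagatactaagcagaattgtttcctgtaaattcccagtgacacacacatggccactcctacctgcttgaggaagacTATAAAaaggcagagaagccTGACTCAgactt
Il1b, chr2:129371140-129371389, minus strand: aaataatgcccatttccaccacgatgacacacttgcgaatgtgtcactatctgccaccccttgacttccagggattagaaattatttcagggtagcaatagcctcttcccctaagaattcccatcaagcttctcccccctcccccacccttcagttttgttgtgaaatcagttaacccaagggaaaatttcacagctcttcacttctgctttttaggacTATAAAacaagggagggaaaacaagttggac
Il1rn, chr2:24336610-24336859, plus strand: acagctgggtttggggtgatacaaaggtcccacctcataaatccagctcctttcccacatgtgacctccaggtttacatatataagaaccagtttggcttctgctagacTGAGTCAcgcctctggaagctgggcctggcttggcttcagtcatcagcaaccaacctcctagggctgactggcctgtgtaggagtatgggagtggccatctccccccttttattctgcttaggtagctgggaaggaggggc
Il1r1, chr1:40224830-40225079, plus strand: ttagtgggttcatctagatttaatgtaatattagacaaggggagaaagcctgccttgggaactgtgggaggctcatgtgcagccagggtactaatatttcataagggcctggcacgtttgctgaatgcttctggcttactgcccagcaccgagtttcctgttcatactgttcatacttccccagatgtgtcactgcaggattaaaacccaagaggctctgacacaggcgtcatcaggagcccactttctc
Nlrp3, chr11:59541319-59541568, plus strand: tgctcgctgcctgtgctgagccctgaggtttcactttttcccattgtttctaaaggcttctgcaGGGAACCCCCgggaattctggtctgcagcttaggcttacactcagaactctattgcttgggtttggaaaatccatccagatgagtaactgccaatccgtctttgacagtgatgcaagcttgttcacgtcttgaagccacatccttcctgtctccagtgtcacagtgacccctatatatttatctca
Casp1, chr9:5298267-5298516, plus strand: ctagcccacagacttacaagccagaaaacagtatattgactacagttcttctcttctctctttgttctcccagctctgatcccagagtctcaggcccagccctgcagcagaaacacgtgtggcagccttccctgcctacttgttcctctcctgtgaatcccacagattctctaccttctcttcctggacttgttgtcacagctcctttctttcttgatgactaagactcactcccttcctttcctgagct
The motifs searched were the interferon-stimulated response element core (GAAA, any pair of bases, GAAA), the interferon gamma activated site TTCNNNGAA, the NF-kB consensus, the AP-1 motif TGANTCA and the TATA box TATAAA. In that order they are found in 2.98%, 7.02%, 7.25%, 6.75% and 12.4% of the 32851 windows of that length in the table. Il1a held a TATA box at positions -32 to -27 and an AP-1 motif at -12 to -6, Il1b held a TATA box at -31 to -26, and Il1rn held an AP-1 motif at -141 to -135. Nlrp3 held the NF-kB consensus at -186 to -177. No match overlapped another. The Casp1 and Il1r1 windows held none of the 5 motifs, and none of the 6 windows held either interferon motif, which says only that these letters are not in these windows. Among the windows not shown, that before the other start of Il1r1 held the NF-kB consensus at -232 to -223, Il1r2 held the interferon gamma activated site at -111 to -103, Il1rl2 held a TATA box on the opposite strand at -166 to -161, and Il1rap held none.

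Il1r1, which encodes the receptor that carries the IL-1 signal, varied little. It was at 98.9, 104 and 116 in WT, against 125, 143 and 111 in SOD1-G85R. The SOD1-G85R replicate 3 value lay inside the WT range and the other values above it. Means were 106 ± 8.77 and 126 ± 15.9 (SD, n = 3 per group), which gave a log2 fold change of 0.24 with a 95% interval from -0.22 to 0.70 (limma, adjusted p of 0.577), and after quantile normalization it was -0.23. The median log2 fold change of all genes tested was 0.15 as deposited.

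Il1rap, which encodes the accessory protein that Il1r1 needs in order to signal and which neurons also use at synapses, was lower in SOD1-G85R. It was at 660.5, 438 and 563 in WT, against 431, 367 and 345 in SOD1-G85R. All SOD1-G85R samples lay below all WT samples, though WT replicate 2 and SOD1-G85R replicate 1 were nearly equal and their Poisson intervals, 398 to 482 and 390 to 476, overlapped. Means were 554 ± 111 and 381 ± 44.9 (SD, n = 3 per group), which gave a log2 fold change of -0.52 with a 95% interval from -1.07 to 0.03 (SE 0.23; limma, adjusted p of 0.342). It was -0.50 without SOD1-G85R replicate 2 and -0.66 after quantile normalization. The sum of the 11 neuronal markers moved the same way, at 40810 to 44179 in WT against 32364 to 39413 in SOD1-G85R, and its part in the result was not tested. The markers did not move alike, since 8 had a negative and 3 a positive log2 fold change. Without overlap 4 were lower and 1 was higher, Tubb3, at 7628 to 8672 in WT against 8818 to 9431 in SOD1-G85R. In whole tissue, fewer cells of a type and less RNA per cell cannot be told apart.

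Because a scaling factor moves both genes of a sample alike, ratios of 3 pairs of members, chosen after the values were seen, were also compared. The first was the Il1r1 count as a share of the Il1rap count. The share was 15.0%, 23.6% and 20.6% for WT, against 28.9%, 38.8% and 32.1% for SOD1-G85R, so that every transgenic sample lay above every WT sample. The difference on the log2 scale was 0.77, where the WT mean was -2.37 ± 0.34 and the SOD1-G85R mean -1.60 ± 0.22 (SD, n = 3 per group; exact permutation test, two-sided, p = 0.1, the smallest that 3 against 3 allows, or 0.3 adjusted over the 3 pairs). It was 0.65 without SOD1-G85R replicate 2. For Casp1 over Nlrp3 the difference was 0.52 (exact permutation test, two-sided, p = 0.6, adjusted 0.7), or -0.06 without that sample. For Il1r1 over Il1rl2 it was 0.07 (exact permutation test, two-sided, p = 0.7, adjusted 0.7), or -0.07 without it. The probes of the genes differ, so the share compares samples and not the abundance of the transcripts. Since the pairs were chosen from these values, the adjustment does not cover that choice, and the p-values are no support for a difference.

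**Figure D2:**
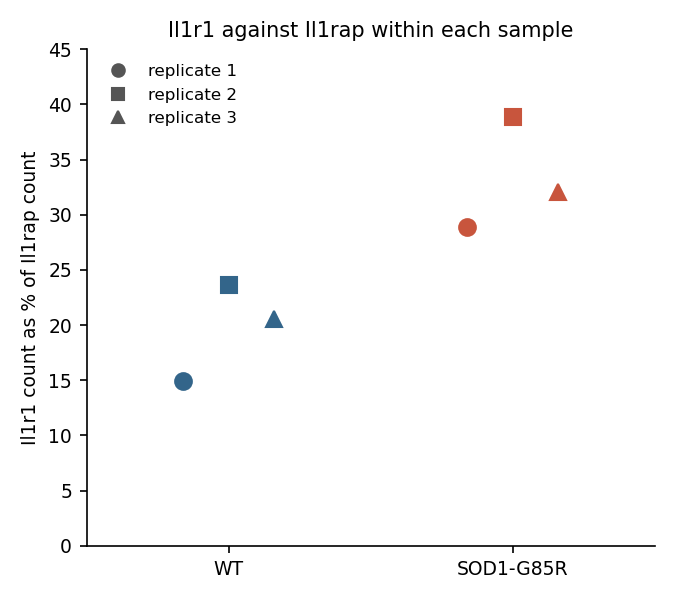
Il1r1 count as a percentage of the Il1rap count in each of the 6 samples, by genotype, with the marker shape giving the replicate. The SOD1-G85R samples lay between 28.9% and 38.8% and the WT samples between 15.0% and 23.6%.

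Il1r2, the gene of the decoy receptor, was near the floor throughout. It was at 12.7 in WT replicate 1 and at the floor in WT replicates 2 and 3 (13.4 and 8.05), against 27.7, 14.3 and 24.2 in SOD1-G85R replicates 1, 2 and 3. The groups did not overlap, but SOD1-G85R replicate 2, at 18 implied counts, was just above WT replicate 2, where the floor is an upper limit. In the fit without a filter its log2 fold change was 0.88 (SE 0.33; limma, adjusted p of 0.265), and without SOD1-G85R replicate 2 it was 1.15 (limma, adjusted p of 0.0687), where 1.43% of the genes passed the adjusted threshold. Unlike Il1rn, Il1r2 was not highest in that replicate.

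Il1rl2, which encodes the receptor for the IL-36 cytokines of the same family, overlapped between the genotypes. It was at 22.2, 20.1 and 34.4 in WT, against 25.6, 26.3 and 32.7 in SOD1-G85R. These values rest on 20 to 43 implied counts a sample. Means were 25.5 ± 7.71 and 28.2 ± 3.91 (SD, n = 3 per group), which gave a log2 fold change of 0.17 with a 95% interval from -0.47 to 0.80 (limma, adjusted p of 0.799). After quantile normalization it was -0.71. Il1r2, Il1r1 and Il1rl2 follow each other on chromosome 1 in the RefSeq annotation, and Il1rap lies on chromosome 16.

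Nlrp3, which encodes the inflammasome sensor, was low and even in WT brain, at 21.4, 20.1 and 24.8. The transgenic samples were at 33.0, 72.5 and 46.9, all above the WT range. Means were 22.1 ± 2.41 and 50.8 ± 20.005 (SD, n = 3 per group), which gave a log2 fold change of 1.10 (SE 0.31; limma, adjusted p of 0.223), and 0.81 without SOD1-G85R replicate 2 (limma, adjusted p of 0.121). In implied counts the WT samples had 27, 20 and 31 and the SOD1-G85R samples 31, 91 and 33, so that in replicates 1 and 3 the higher level came with nearly the counts of WT replicate 3 and a larger scaling step, of 1.07 and 1.42 normalized counts per implied count against 0.799. Within its sample Nlrp3 kept its place: 16.9%, 12.3% and 16.9% of the 770 genes were lower in the WT samples, against 18.2%, 16.5% and 16.0% in SOD1-G85R. The log2 fold change after quantile normalization, which sets the distribution of every sample equal, was 0.13 (limma, adjusted p of 0.853). With only the sample medians set equal it was 0.89 (limma, adjusted p of 0.155). Centred on 12 housekeeping genes of the panel it was 1.17 (limma, adjusted p of 0.153). Implied totals were 551752 and 468718 counts in SOD1-G85R replicates 1 and 3, against 970312 in WT replicate 3. The low end of the panel moved with the genotype as given above. Quantile normalization sets that end equal whatever the reason for the shift, so it cannot tell a change of Nlrp3 from one of scaling. The cause was not tested.

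Casp1, which encodes the protease that matures IL-1β, was at 53.8, 32.2 and 79.1 in WT. The transgenic samples were at 93.8, 541 and 83.8. All 3 were above the WT range, but replicate 3 was only just above WT replicate 3, and their Poisson intervals of 63.8 to 108 and 64.3 to 96.3 overlapped. Replicate 2 was 5.78 times the highest other sample. Means were 55.0 ± 23.5 and 240 ± 261 (SD, n = 3 per group), which gave a log2 fold change of 1.63 (SE 0.77; limma, adjusted p of 0.375). Without SOD1-G85R replicate 2 it was 0.77 (SE 0.35; limma, adjusted p of 0.290), and after quantile normalization with all samples it was 1.13. Casp1 ranked above 30.3%, 20.8% and 33.6% of genes for WT, against 37.3%, 60.8% and 31.2% in SOD1-G85R replicates 1, 2 and 3, so that by rank the genotypes overlapped.

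**Figure D3:**
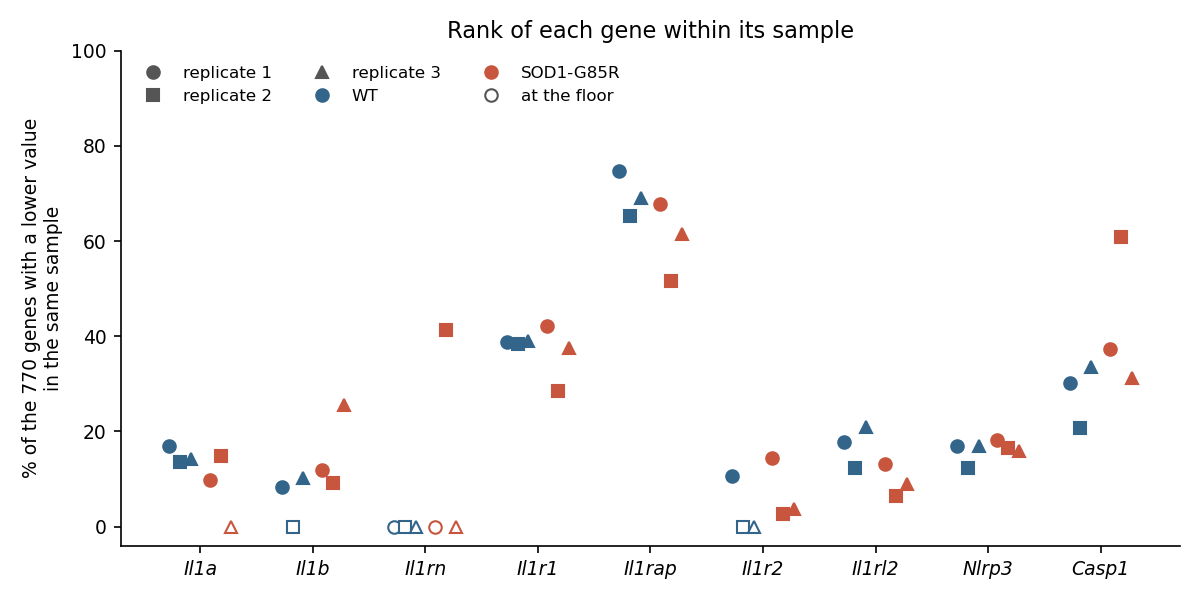
Percentage of the 770 genes with a lower value in the same sample, for each of the 9 genes, with colour giving the genotype, marker shape the replicate and open markers values at the floor. Nlrp3 stayed between 12.3% and 18.2% in all 6 samples, while Casp1 reached 60.8% and Il1rn 41.3% in SOD1-G85R replicate 2.

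Ranks of the ligand and receptor genes overlapped between the genotypes for Il1b and Il1rap. Il1b ranked above 8.3% of genes in WT replicate 1 and 10.1% in WT replicate 3, and above 11.8%, 9.2% and 25.5% in SOD1-G85R replicates 1, 2 and 3, so that replicate 3 was highest and replicate 2 lay inside the WT range. WT replicate 2 was at the floor. Il1rap ranked above 74.8%, 65.2% and 69.0% for WT, against 67.8%, 51.7% and 61.4% in SOD1-G85R. Il1rl2 ranked above 12.3% to 20.9% of genes for WT, against 6.5% to 13.1% in SOD1-G85R.

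**Figure D4:**
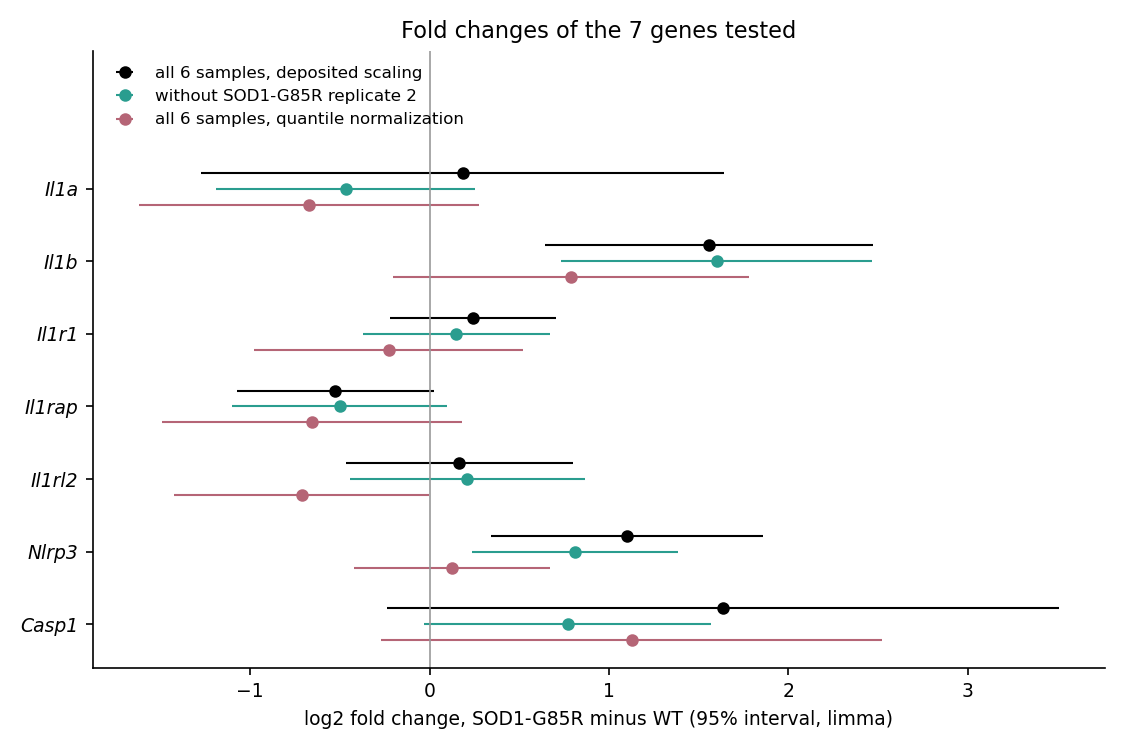
Log2 fold changes of the 7 genes tested, SOD1-G85R minus WT, with 95% intervals from limma, for all 6 samples in the deposited scaling (black), without SOD1-G85R replicate 2 (green) and after quantile normalization (pink). Il1b was at 1.56, 1.60 and 0.79, Nlrp3 at 1.10, 0.81 and 0.13 and Il1rap at -0.52, -0.50 and -0.66.

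Genes around the IL-1 system were described from lists chosen with earlier results of these data known. Of 15 relatives of the family outside the members, such as Il18 and Il33, none was analysed here. Of 17 genes that carry the signal from the receptor to NF-kB, 0 passed limma's adjusted threshold and 1, Irak3, passed an unadjusted p of 0.05 in the higher direction, against 11.7% of all genes tested. Irak3, the brake among the receptor-associated kinases, was at 19.8, 22.1 and 18.4 in WT against 24.5, 57.3 and 34.1 in SOD1-G85R. In the other direction Chuk and Ikbkg, which encode subunits of the kinase that frees NF-kB, were lower in every SOD1-G85R sample than in any WT sample. Chuk was at 963, 1031 and 942 in WT, against 841, 838 and 761 (limma, adjusted p of 0.493), and Ikbkg at 249, 221 and 281, against 189, 209 and 219 (limma, adjusted p of 0.518). Irak3 was the 1 gene of the 17 higher in every SOD1-G85R sample, against 17.4% of all 770 genes. Chuk and Ikbkg were the 2 of the 17 that were lower in every one, against 9.22%. The list median was 0.25, against 0.15 over all genes tested, and -0.10 without SOD1-G85R replicate 2, against 0.01 over all genes then. In SOD1-G85R replicate 2, 14 of the 17 had their highest value, against 46.4% of the 770 genes and 5 of the 9 members. Myd88, the adaptor of the receptor, was at 53.0, 58.3 and 64.7 in WT against 58.6, 234 and 95.2 in SOD1-G85R. Nfkb2, an NF-kB subunit gene, was at 283 in that replicate against 49.3 to 73.9 elsewhere, and Nfkbie, an inhibitor of NF-kB, was at 253 against 28.5 to 90.9. Map3k1 and Irak4, kinases of the pathway, had their highest values there too, by less. Map3k1 was at 828 against 209 to 601 elsewhere, and Irak4 at 155 against 43.5 to 89.5.

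Of the inflammasome and inflammatory caspase list 4 genes were measured, and 0 passed either threshold of limma with all 6 samples. Casp4, which encodes the mouse caspase-11 that senses bacterial lipopolysaccharide, was at 17.4, 15.1 and 24.0 in WT against 21.3, 412 and 27.0 in SOD1-G85R. Like Casp1 it was high in replicate 2, but its genotypes overlapped with all 6 samples, since SOD1-G85R replicate 1 lay below WT replicate 3. Pycard, the adaptor that links NLRP3 to caspase-1, was at 25.3, 27.2 and 16.8 in WT against 35.2, 21.5 and 44.0 in SOD1-G85R, and so was lowest of its group in that replicate. Casp8, an initiator caspase, was at 118, 74.4 and 96.7 in WT against 109, 245 and 93.8 in SOD1-G85R, and the ATP-gated channel gene P2rx7 was at 172, 142 and 183 in WT against 167, 295 and 187 in SOD1-G85R.

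Of 8 measured genes known to respond to IL-1, 7 had a positive and 1 a negative log2 fold change, and 5 were higher without overlap, against 17.4% of all 770 genes. Whether IL-1 or another signal acted on them was not tested. The list median was 1.78, against 0.15 over all genes tested, and 0.83 without SOD1-G85R replicate 2, against 0.01. By limma 0 passed the adjusted threshold and 3, Hcar2, Ptx3 and Steap4, passed an unadjusted p of 0.05 in the higher direction, against 11.7% of the genes tested. Ptx3, a pentraxin of innate defence, was at 21.4, 23.1 and 29.6 in WT against 59.7, 153 and 69.6 in SOD1-G85R, and Hcar2, a receptor gene of myeloid cells, was at or below 13.4 in WT, against 25.6, 67.7 and 35.5 in SOD1-G85R. Both passed limma's adjusted threshold without SOD1-G85R replicate 2, where the whole panel had 10 calls, or 1.40%. In that setting sex and genotype cannot be fully told apart, as given above. No WT sample exceeded 20 for Hcar2 or for Lcn2, so that the direction of both, too, was fixed by the filter. Lcn2, which encodes the iron-binding protein lipocalin-2, was at 552 in SOD1-G85R replicate 2, at 20.2 in replicate 1, at 36.9 in replicate 3 and at most 19.2 in WT. Ccl2, a monocyte attractant, was at 2257 in that replicate against 28.8 and 59.7, with WT at 29.3 to 41.2. Bcl2a1a, a survival gene of immune cells, was at 2088 against 125 and 187, with WT at 58.3 to 83.9, and Socs3, a feedback inhibitor of cytokine signalling, had overlapping groups. Ptgs2, the inducible cyclooxygenase, was the 1 gene in the other direction, at 77.5, 46.3 and 63.1 in WT against 41.6, 60.5 and 41.2 in SOD1-G85R, with overlap.

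Marker genes of other cell types are given beside these results, and their part was not tested. Of the sums, those of neutrophil and monocyte and of T and NK cell markers were higher in every SOD1-G85R sample than in WT, those of oligodendrocyte and neuronal markers were lower, and those of both microglial lists, astrocytes, endothelium, B cells and interferon response genes overlapped. The sum of 11 activated microglia and macrophage markers was 807 to 1314 in WT against 1182, 6330 and 1134 in SOD1-G85R replicates 1, 2 and 3. Over 9 homeostatic microglia markers it was 3292 to 4837 in WT against 2984, 4751 and 3824 in SOD1-G85R. Neutrophil and monocyte markers, 7 measured, summed to 203 to 241 in WT, against 279, 1191 and 393 in SOD1-G85R. Ly6g, the defining neutrophil marker, was at the floor in 2 WT samples, at most 13.4 in WT and between 14.3 and 27.0 in SOD1-G85R. T and NK cell markers, 15 measured, summed to 164 to 216 in WT, where 6 of them were at the floor in every sample, and to 249, 1138 and 408 in SOD1-G85R. Of these, 13 were at the floor in at least 1 sample and 4 entered the test. Median log2 fold changes of the genes tested were 1.31 for neutrophils and monocytes and 1.22 for T and NK cells. After quantile normalization they were 0.53 and 0.28, against -0.10 over all genes tested. No WT sample exceeded 20 for Trem1, Fpr1, Cd3d or Klrd1, which entered the test only through SOD1-G85R. In the deposited scaling the filter thus fixed their direction, and these medians are no support for a difference. The low end of the panel was higher in SOD1-G85R, as given above. Endothelial markers, 7 measured, summed to 2331 to 2655 in WT against 2254, 9143 and 2503 in SOD1-G85R. Of the 9143, 5388 was Ly6a alone. Without it the other 6 summed to 2082 to 2494 in WT, against 1994, 3755 and 2328. Oligodendrocyte markers, 10 measured, summed to 53416 to 72061 in WT, against 27773, 37775 and 36020 in SOD1-G85R. Genes listed for astrocytes, 7 measured, summed to 14252 to 23427 in WT, against 18133, 19211 and 18144 in SOD1-G85R. Of these Fgf13, which is not particular to astrocytes, was at 2345 to 3691 in WT and 2984 to 3308 in SOD1-G85R. B cell markers, 4 measured, summed to 101 to 120 in WT, against 100.1, 377 and 186 in SOD1-G85R. Interferon response genes, 14 measured, were all highest in SOD1-G85R replicate 2, with a sum of 35669 there against 1373 to 2058 elsewhere.

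**Figure D5:**
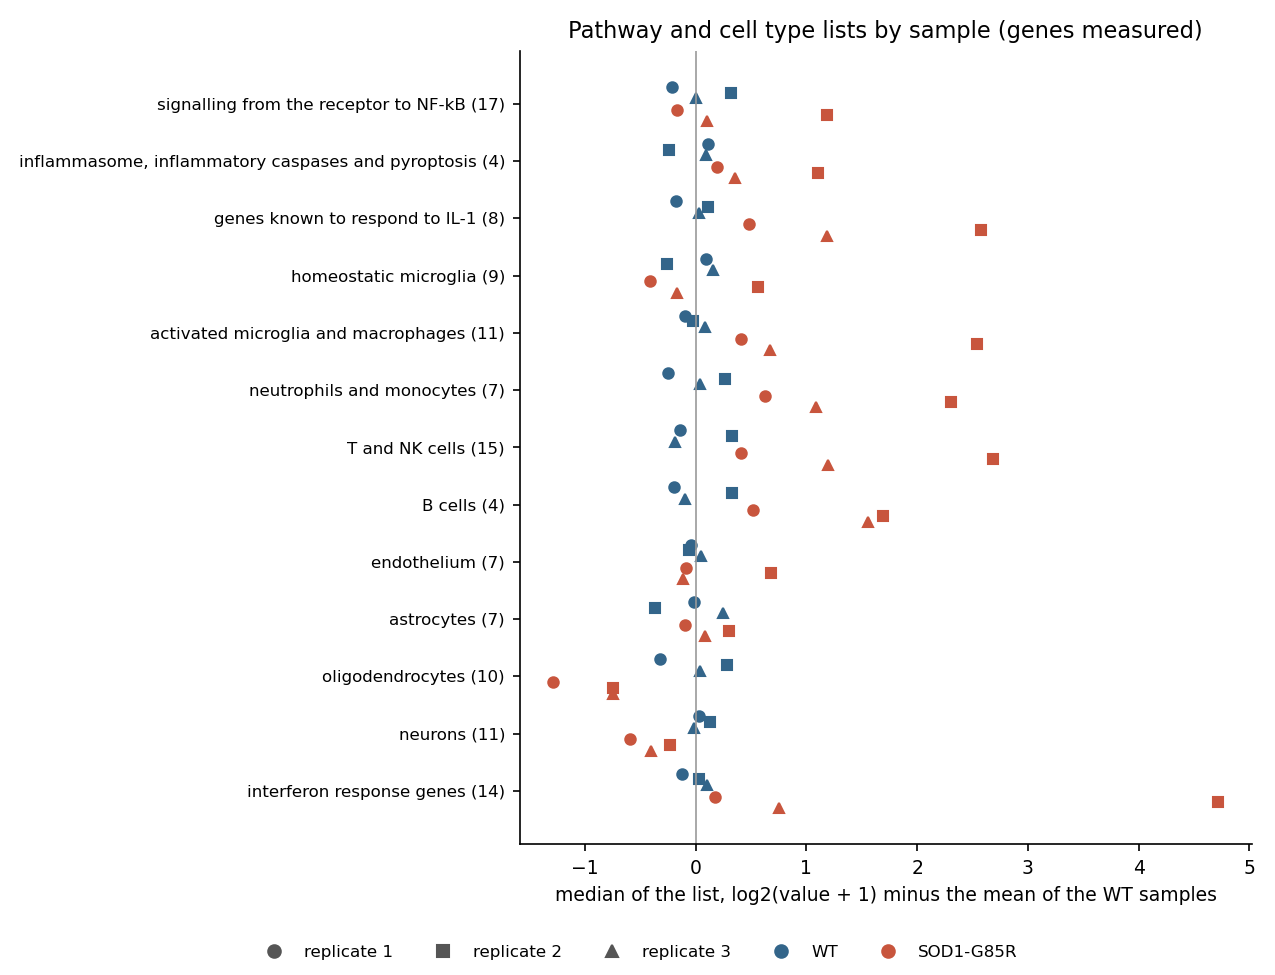
Median of each gene list in each sample as log2(value + 1) minus the mean of the WT samples, with the number of genes measured in brackets, colour giving the genotype and marker shape the replicate. SOD1-G85R replicate 2 lay at 4.72 for interferon response genes, 2.54 for activated microglia and macrophage markers and 2.57 for genes known to respond to IL-1.

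The genes most like each member over the 6 samples were found by the root mean square difference of log2(value + 1), centred on each gene's mean, among 717 other genes at the floor in at most 1 sample. Those nearest to Il1b were Osgin1 (0.19), Blk (0.25) and Ctse (0.25), which like Il1b were near the floor in WT and highest in SOD1-G85R replicate 3, at 54.0, 45.5 and 52.6. Those nearest to Nlrp3 were Fas (0.11), Ncaph (0.13) and Ifitm2 (0.15). Fas, a death receptor gene, was at 19.8, 17.1 and 22.4 in WT, against 30.9, 71.7 and 51.1 in SOD1-G85R. Casp1 was nearest to Pilra (0.31), Tnfsf10 (0.34) and Spp1 (0.35), each highest in SOD1-G85R replicate 2. Il1a was nearest to Lair1 (0.29), Fcgr3 (0.30) and Nfkbia (0.36). Il1rap was nearest to Nlgn1 (0.10), Ppp3ca (0.11) and Syn2 (0.13), of which Ppp3ca and Syn2 were lower in every SOD1-G85R sample than in any WT sample and Nlgn1 overlapped. Il1r1 was nearest to Casp6 (0.057), Cidea (0.067) and Optn (0.089), and Il1rl2 to Atp6v0e (0.097), Bad (0.0996) and Bbc3 (0.0996). Il1r2 and Il1rn were at the floor in more than 1 sample and were not compared in this way.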

How the data were processed

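NanoString probe signal for 770 genes was measured in whole brain RNA of 3 WT and 3 SOD1-G85R samples. The deposited signal had been scaled between samples by the authors. How the scaling and the floor were set is not given in the sources used here. Values above the floor and below 150 were whole multiples of 1 step a sample (100% within 0.1 count), which gave the implied counts and their 95% Poisson intervals. Planned count models were not run on these, since the table does not pass as recovered whole counts over all genes. Groups came from the labels. Values were taken as log2(value + 1), which understates changes of low genes, and genes above 20 in at least 3 of 6 samples (712) entered a two-sided test in limma 3.58.1 (R 4.3.3) with Benjamini-Hochberg adjustment over all genes tested. A fold change is SOD1-G85R minus WT. The fit was tested on simulated data. All 9 members, up to 6 genes a list by size of fold change, a few named in advance and the 3 genes most like each member were named. Marker sums, ranks and genes with a value given beside these were described after their values were seen. The members and lists were chosen with earlier results of these data known. Of 770 symbols, 763 were current and 7 synonyms in the GRCm38.p6 annotation. Same-numbered samples deviated together with correlations of 0.23, 0.088 and 0.0999, so the numbers were not taken as pairs. Figures were drawn with matplotlib 3.10.9.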

Additional observations from a re-analysis of the deposited data

Results flagged for a closer look

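Il1rn and Il1r2 were left out of the main comparison by the filter on low values and yet gave signal above the WT level. Il1rn was at 245 normalized counts in SOD1-G85R replicate 2 and at the floor in the 5 other samples. Il1r2 was at 27.7 in SOD1-G85R replicate 1, where the highest WT value was a floor of 13.4.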

How the results depend on the processing

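Over the panel limma called 0 genes with all samples, 0 to 10 with 1 sample left out, the 10 being without SOD1-G85R replicate 2, 52 with sample weights (whose estimation stopped before its tolerance), and 11 without SOD1-G85R replicate 2 either with no filter or after quantile normalization, 2 settings added after seeing the data. Of the members 0 were called under each setting except sample weights, which called 2, Il1b (adjusted p of 0.0186) and Nlrp3 (adjusted p of 0.0442). Il1b entered that fit only through its SOD1-G85R samples. At an unadjusted p of 0.05 limma counted 2 members (16.3% of all genes tested), 2 to 3 with 1 sample left out (8.99% to 20.9%), 1 after quantile normalization (Il1rl2, lower; 8.15%) and 0 of 3 with a filter at 50, which leaves out Il1b and Nlrp3 (10.8%). With the replicate number as a block the counts were 0 over the panel, 0 members and 3 members at an unadjusted p (22.8% of the genes), and no adjusted call changed. The log2 fold change of Il1a lay between -0.47 and 0.78 with 1 sample left out, and turned to -0.47 without SOD1-G85R replicate 2 with or without a filter, to -0.021 on sample medians, -0.67 after quantile normalization, -0.91 with both changes and -0.57 with sample weights. Il1r1 turned to -0.23 after quantile normalization. Il1rl2 turned to -0.041 on sample medians, -0.71 after quantile normalization and -0.51 with that sample also left out. The Il1rn value of -0.13 without SOD1-G85R replicate 2 is a difference between floors, since all 5 remaining samples are at theirs, and gives no direction. The causes were not tested. Il1b (0.79 to 1.88), Nlrp3 (0.13 to 1.37) and Il1rap (-0.73 to -0.37) kept their direction in all 19, 19 and 20 settings that held them, the deposited scaling included, and Casp1 (0.50 to 2.11) in 20. For Il1b this is no support, since the filter fixed its direction in nearly every setting. The edgeR and DESeq2 fits that were planned were not run, because the table does not pass as recovered whole counts over all genes. Levels near the floor limit Il1b, Il1r2, Il1a, Il1rl2 and Nlrp3 to at most 91 implied counts a sample.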
